A study of Arabidopsis thaliana with 18 samples.

Results

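LHCB4.1 (AT5G01530) and LHCB4.2 (AT3G08940) are nuclear genes for CP29, a light-harvesting protein of photosystem II in Arabidopsis thaliana. The platform annotation gives each gene 1 probe set that names it alone, and these 2 genes are set against 13356 genes that have a probe set of their own, among 22746 probe sets tested. The 2 genes were set by name, with earlier results of these data already known. Affymetrix arrays were hybridised with total RNA from 5-day-old seedlings of 3 genotypes, the wild type Col-0, gun1-9 and gun5. All seedlings grew in continuous light on medium with 1% sucrose. Each genotype was grown without treatment and on plates with 5 uM norflurazon, and each of the 6 groups had 3 arrays, called biological replicates in the series design.

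CP29 is a minor, monomeric antenna protein that binds chlorophyll and carotenoids. It sits between the photosystem II core and the outer trimers of light-harvesting complex II and passes excitation energy inward. In Arabidopsis it is encoded by LHCB4.1, LHCB4.2 and LHCB4.3. Norflurazon blocks carotenoid synthesis, so that plastids bleach in the light, and nuclear antenna genes are then switched down in the wild type. The plastid protein GUN1 carries pentatricopeptide repeats, and GUN5 encodes a magnesium chelatase subunit, CHLH, which acts in chlorophyll synthesis. The gun (genomes uncoupled) mutants are known for keeping antenna genes active under these conditions. The labels do not say what the gun1-9 and gun5 alleles change, and the platform annotation used names no probe set for GUN1 or GUN5 alone, so their transcripts were not analysed here.

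The median intensity of an array lay between 14.7 and 16.3, and Pearson's r between replicate arrays, across probe sets, was at least 0.992. With 3 values per group the number of arrays limits the precision. Whole-seedling RNA cannot tell fewer green cells from less transcript per cell. Of 6 green mesophyll markers 1 had its own probe set: RCA, rubisco activase, was at 7567 ± 32.6 in untreated and 2053 ± 198 in treated Col-0 (SD, n = 3), against 7374 ± 75.7 and 6500 ± 201 in gun1-9 and 7082 ± 460 and 7323 ± 145 in gun5. Of 10 seed markers 1 was measured: ICL, isocitrate lyase, stood at 260.4 ± 202 in untreated and 2362 ± 199 in treated Col-0. It went from 17.4 ± 11.5 to 331.7 ± 104 in gun1-9 and from 7.94 ± 5.90 to 247.3 ± 111 in gun5. ICL rose on norflurazon in all 3 genotypes, with log2 changes of 3.52, 4.45 and 4.87, and without norflurazon it was lower than in Col-0 in gun1-9 (-3.80, limma adjusted p = 0.0143) and in gun5 (-4.71, limma adjusted p = 0.000943). None of 6 root markers had its own probe set. The array's control for 25S ribosomal RNA lay between 927.5 and 3143 in treated gun1-9, against 19.6 to 96.9 on the other 15 arrays. The part of these shifts in the results below was not tested.

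LHCB4.1 was a bright probe set in every untreated group. Its intensities in untreated Col-0 were 5832, 5676 and 6422, in untreated gun1-9 5786, 6179 and 5397, and in untreated gun5 6233, 6170 and 6516. These 3 groups overlapped. On norflurazon the intensities were 961.9, 1251 and 1338 in Col-0, 5143, 5356 and 4996 in gun1-9, and 3360, 3558 and 3672 in gun5. The 3 treated groups did not overlap with each other, with gun1-9 highest and Col-0 lowest. All treated gun1-9 arrays lay just below the lowest untreated gun1-9 array.

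LHCB4.2 had the same order of treated groups and spread over a wider range on a log scale. Its intensities in untreated Col-0 were 3960, 4456 and 4737, in untreated gun1-9 3989, 4404 and 5012, and in untreated gun5 5043, 4528 and 4992. These groups overlapped as well. On norflurazon the intensities were 211.5, 237.8 and 299.1 in Col-0, 2406, 2711 and 2422 in gun1-9, and 1574, 1498 and 2036 in gun5. Every treated array was below every untreated array, and the 3 treated groups were separate from each other. Levels of different probe sets depend on their probes and are not compared here.

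**Figure D1:**
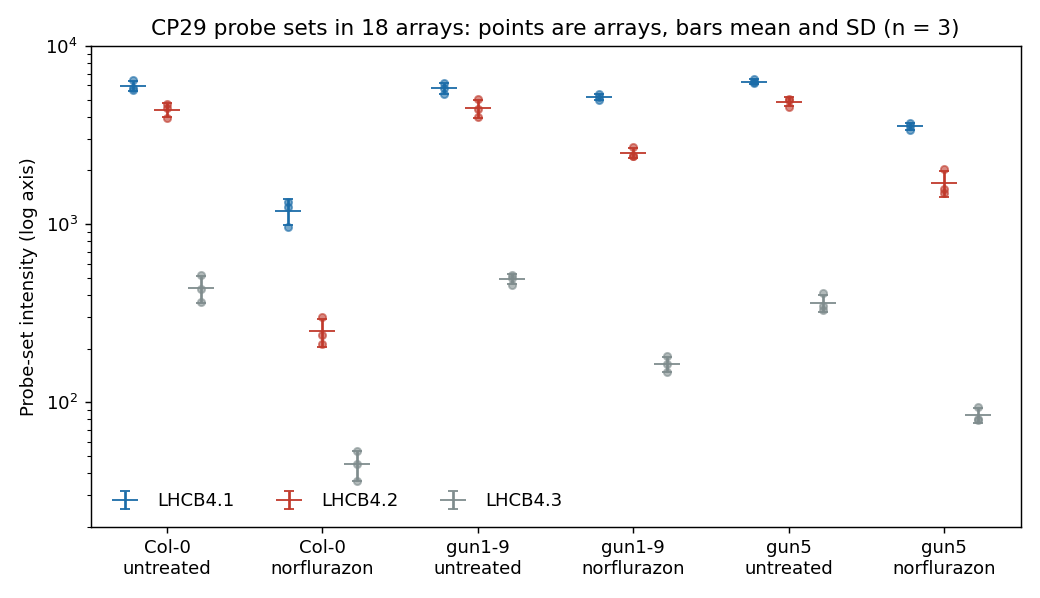
Intensity (log axis) of the probe sets of LHCB4.1, LHCB4.2 and LHCB4.3 in the 6 groups; points are arrays and bars the mean and SD of 3 arrays. Treated Col-0 is the lowest group for each gene, at 1184, 249.5 and 44.8, and treated gun1-9 lies above treated gun5.

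Without norflurazon, no difference between genotypes was called for either gene. Untreated means of LHCB4.1 were 5977 ± 394 for Col-0, 5787 ± 391 for gun1-9 and 6306 ± 184 for gun5 (SD, n = 3). Those of LHCB4.2 were 4384 ± 393, 4468 ± 515 and 4854 ± 284. The log2 differences of LHCB4.1 were -0.05 between gun1-9 and Col-0 (95% interval -0.27 to 0.18) and 0.08 between gun5 and Col-0 (-0.15 to 0.30). Those of LHCB4.2 were 0.03 (-0.26 to 0.31) and 0.15 (-0.14 to 0.44). The limma fit over all 18 arrays gave 0 calls among the 6 values of both genes, and 0 at an unadjusted p under 0.05. Over all probe sets the called share in these comparisons was 0.396% for gun1-9 against Col-0, 1.67% for gun5 against Col-0 and 0.163% between the mutants. These intervals leave room for differences of about the size of their bounds.

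The first comparison asks how each genotype responds to norflurazon. In Col-0 both genes fell, LHCB4.1 to 19.8% and LHCB4.2 to 5.69% of the untreated mean. The log2 change of LHCB4.1 was -2.35 ± 0.11 (SE, limma adjusted p = 1.15e-11), and that of LHCB4.2 was -4.14 ± 0.14 (adjusted p = 2.2e-13). As a ratio of mean intensities, LHCB4.1 was 5.05-fold and LHCB4.2 17.6-fold lower. Of the probe sets tested, 15.1% were called lower in Col-0. Only 64 of the 22746 probe sets had a more negative change than LHCB4.2, and 374 had a more negative one than LHCB4.1.

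In gun1-9, LHCB4.2 fell and LHCB4.1 was not called. Treated seedlings had 56.2% of the untreated LHCB4.2 level, a log2 change of -0.83 ± 0.14 (SE, limma adjusted p = 0.000131). LHCB4.1 stood at 89.2% of its untreated level, a log2 change of -0.16 ± 0.11 with a 95% interval from -0.39 to 0.06 (limma adjusted p = 0.268). Quantile normalization brought the value of LHCB4.1 to -0.01. In gun1-9, 15.7% of probe sets were called lower, 1550 had a more negative change than LHCB4.2 and 6014 a more negative one than LHCB4.1.

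In gun5 both genes fell, by less than in Col-0 and by more than in gun1-9. LHCB4.1 stood at 56.0% and LHCB4.2 at 35.1% of the untreated mean. The log2 changes were -0.84 ± 0.11 for LHCB4.1 (SE, limma adjusted p = 1.32e-05) and -1.52 ± 0.14 for LHCB4.2 (adjusted p = 3.1e-07). In gun5, 13.2% of probe sets were called lower, and 352 had a more negative change than LHCB4.2 and 1195 a more negative one than LHCB4.1.

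**Figure D2:**
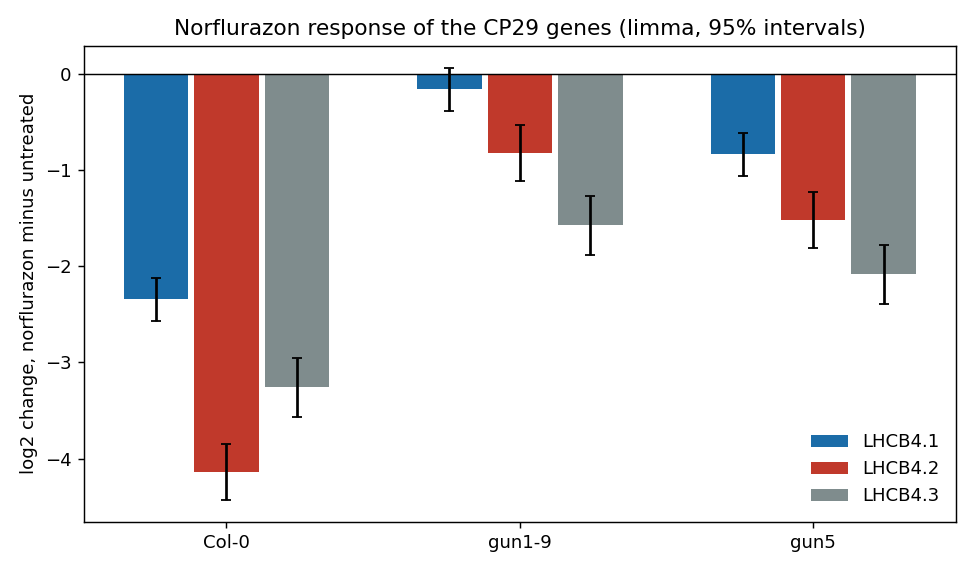
Norflurazon response of the CP29 genes as log2 change (treated minus untreated) in each genotype, with 95% intervals of the limma fit. LHCB4.1 has the smallest fall in every genotype, from -2.35 in Col-0 to -0.16 in gun1-9, and only that last interval includes 0.

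**Figure D3:**
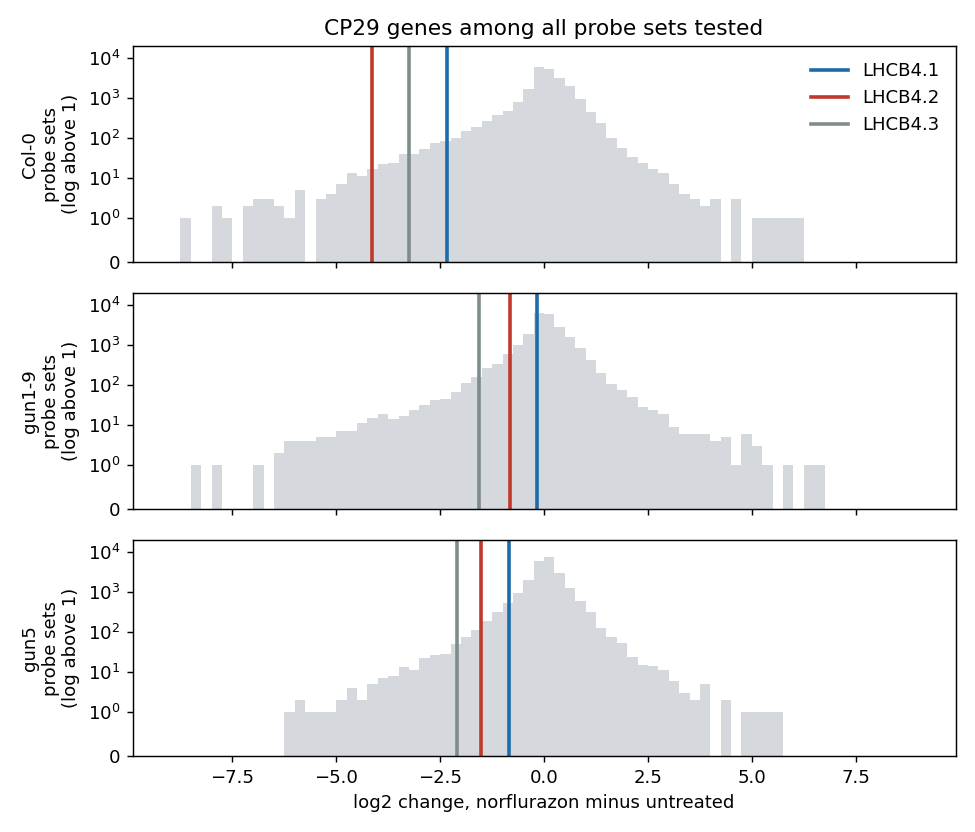
Number of probe sets (y axis, logarithmic above 1) by log2 change on norflurazon in bins 0.25 wide, for Col-0, gun1-9 and gun5; vertical lines mark the CP29 genes. In Col-0 all 3 lines lie in the lower tail, and in gun1-9 LHCB4.1, at -0.16, lies inside the bulk of all probe sets.

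The next comparison asks whether the response itself differs between genotypes. Both mutants differed from Col-0 for both genes. For LHCB4.1 the difference of log2 changes was 2.18 ± 0.15 in gun1-9 (SE, limma adjusted p = 1.51e-08) and 1.51 ± 0.15 in gun5 (adjusted p = 1.15e-06). For LHCB4.2 it was 3.32 ± 0.19 in gun1-9 (adjusted p = 2.31e-09) and 2.62 ± 0.19 in gun5 (adjusted p = 3.68e-08). Over all probe sets 8.07% were called higher in gun1-9 and 8.73% in gun5, and 46 and 90 had a larger positive difference than LHCB4.2. For LHCB4.1 these numbers were 174 in gun1-9 and 555 in gun5. Both differences use the same Col-0 arrays.

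The mutants also differed from each other. The fall of LHCB4.1 was smaller in gun1-9 than in gun5 by 0.68 ± 0.15 on the log2 scale (SE, limma adjusted p = 0.0118), and that of LHCB4.2 by 0.70 ± 0.19 (adjusted p = 0.0441). In this comparison 2.39% of probe sets were called higher. The LHCB4.2 value lay near the threshold and was not called in 14 of 26 alternative settings, with adjusted p between 0.0142 and 0.108 over all of them and values from 0.61 to 0.83. The LHCB4.1 value was called in each of the 26, with adjusted p up to 0.0333. Among arrays left out in turn, 12 of 18 ended the call of LHCB4.2. These were replicate 2 of untreated and of treated Col-0, replicates 1 and 2 of untreated and all 3 of treated gun1-9, and all 3 of untreated and replicates 1 and 2 of treated gun5.

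Compared by level on norflurazon, LHCB4.1 was higher than in treated Col-0 by 2.14 ± 0.11 in gun1-9 and by 1.59 ± 0.11 in gun5 on the log2 scale. LHCB4.2 was higher by 3.34 ± 0.14 and 2.77 ± 0.14. All 4 values were called (limma adjusted p at most 3.8e-09), where 10.3% and 10.9% of probe sets were called higher. Treated gun1-9 was above treated gun5 by 0.55 ± 0.11 for LHCB4.1 (adjusted p = 0.00186) and by 0.57 ± 0.14 for LHCB4.2 (adjusted p = 0.00899), with 6.42% of probe sets called higher. The order of groups was therefore the same for both genes on norflurazon, while the order of the untreated groups was not resolved.

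The 2 genes were then compared with each other, by the log2 difference LHCB4.1 minus LHCB4.2 within each array. Scaling a whole array leaves this difference almost unaltered. In Col-0 it was 0.56, 0.35 and 0.44 in the untreated arrays and 2.18, 2.39 and 2.16 in the treated ones. In gun1-9 it was 0.54, 0.49 and 0.11 without and 1.096, 0.98 and 1.04 with norflurazon. In gun5 it was 0.31, 0.45 and 0.38 without and 1.09, 1.25 and 0.85 with norflurazon. Treated and untreated arrays did not overlap in any genotype.

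LHCB4.1 thus fell less than LHCB4.2, with a gap of 1.79 ± 0.12 for Col-0, 0.66 ± 0.12 for gun1-9 and 0.69 ± 0.12 for gun5 (log2, SE from the pooled spread of the 6 groups). With 3 against 3 arrays the exact permutation test cannot give a 2-sided p below 0.1, and each genotype gave p = 0.1 (adjusted over the 3 genotypes p = 0.1). With treatment permuted within each of the 3 genotypes, the mean of 1.05 ± 0.07 had an exact permutation p = 0.00025, the smallest that its 8000 relabelings allow. In Col-0, for comparison, LHCB4.1 retained 19.8% and LHCB4.2 5.69%, whereas in gun1-9 they retained 89.2% and 56.2% and in gun5 56.0% and 35.1%. LHCB4.1 reached 6516 and was at or above the 96.4th percentile of every array, while the brightest probe set of an array lay between 11192 and 13561. The part of brightness in the unequal falls was not tested.

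The gap that opened between the genes was smaller in the mutants than in Col-0 by point estimate, with a difference of -1.13 ± 0.17 in gun1-9 and -1.11 ± 0.17 in gun5 (log2 ± SE). An exact permutation test of genotype within treatment gave p = 0.065 and p = 0.08, or adjusted p = 0.12 for both over the 3 pairs of genotypes. These values did not pass, though the 400 relabelings allow a p as small as 0.005. Of them, 40 keep the split of the treated arrays, and all 26 and 32 that reached the observed difference were among these 40. A larger difference on treated arrays alone would therefore not have lowered p. How small p became within these 40 depended on the untreated arrays. The treated Col-0 arrays did not overlap with those of either mutant. Between gun1-9 and gun5 the gaps differed by -0.02 ± 0.17 (exact permutation p = 0.9).

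**Figure D4:**
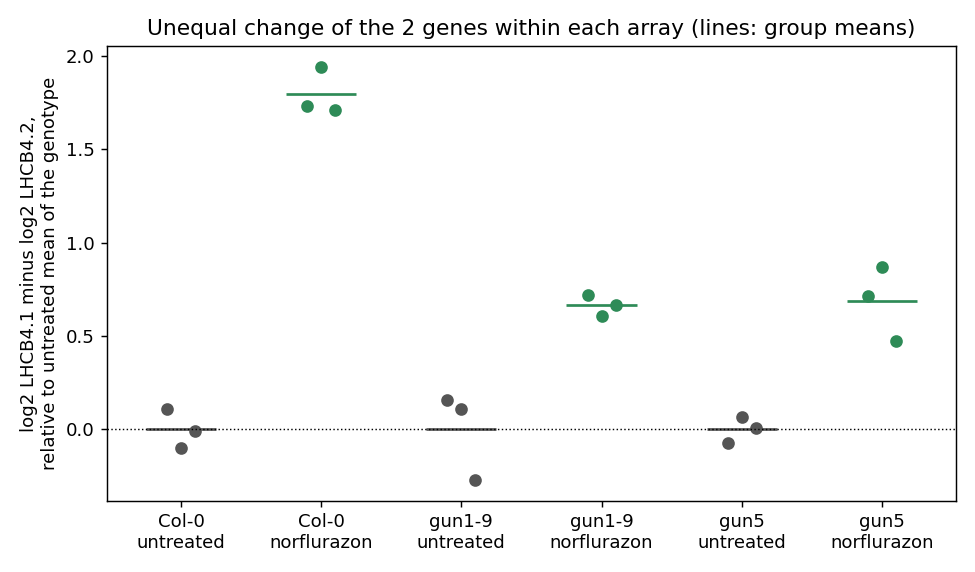
Within-array difference log2 LHCB4.1 minus log2 LHCB4.2 (y axis), relative to the untreated mean of the same genotype; points are arrays and lines group means. Treated Col-0 arrays lie between 1.71 and 1.94, those of gun1-9 between 0.60 and 0.72 and those of gun5 between 0.47 and 0.87.

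LHCB4.3 (AT2G40100) is the remaining CP29 gene, and of 21 antenna genes listed the 3 CP29 genes were those with a probe set of their own. LHCB4.3 fell in all 3 genotypes, from 436.5 ± 76.4 to 44.8 ± 8.53 in Col-0, from 491.6 ± 34.0 to 164.3 ± 15.99 in gun1-9 and from 361.2 ± 40.7 to 84.2 ± 8.07 in gun5. The log2 changes were -3.26, -1.58 and -2.09 (limma adjusted p at most 2.2e-07). In Col-0 its fall lay between those of LHCB4.1 and LHCB4.2, and in both mutants it was the largest of the 3. Its difference of response from Col-0 was 1.68 ± 0.21 in gun1-9 and 1.17 ± 0.21 in gun5, both called, and between the mutants 0.51 ± 0.21 without a call (adjusted p = 0.192).

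Comparisons with LHCB4.3 were added after its values were seen. LHCB4.1 fell less than LHCB4.3, by 0.91 for Col-0, 1.41 for gun1-9 and 1.25 for gun5, and over the 3 genotypes the mean of 1.19 had an exact permutation p = 0.00025 (adjusted p = 0.0005 over both pairs with LHCB4.3). LHCB4.2 fell more than LHCB4.3 in Col-0, with a change of the within-array difference of -0.88, and less in gun1-9 and gun5, with 0.75 and 0.56. Over the 3 genotypes its mean of 0.14 had exact permutation p = 0.524. The turn between Col-0 and gun1-9 (1.63) had exact permutation p = 0.02 and adjusted p = 0.12 over 6 such tests. That between Col-0 and gun5 (1.44) had exact permutation p = 0.105 and adjusted p = 0.25. The smallest p that these tests allow is 0.005. Of relabelings that reached the observed value, all 8 for gun1-9 and 40 of 42 for gun5 kept the split of the treated arrays.

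Other genes of the photosystems gave a background for the CP29 genes. Of 26 nuclear photosystem genes listed 5 were measured, and all 5 fell in Col-0, with a median log2 change of -2.84 against 0.03 over all probe sets. They are PSBW and PSBY, small subunits of photosystem II, PSB27, an assembly factor of photosystem II, and PSAE-1 and PSAN, peripheral subunits of photosystem I. In gun1-9 all 5 fell (median -0.60, all probe sets 0.02), and in gun5 4 of 5 fell (median -0.72, all probe sets 0.04). PSB27 in gun5, at -0.18, was not called. LHCB4.2 lay outside the range of these 5 genes in Col-0 (-3.08 to -1.96) and in gun5 (-0.78 to -0.18), and LHCB4.1 lay outside it in gun1-9 (-0.99 to -0.33) and slightly in gun5.

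The difference between the mutants was not called for any of these 5 photosystem genes by limma, with values from -0.27 to 0.30 (adjusted p from 0.352 to 0.890). Over all probe sets 5.46% were called in either direction, so a count of 0 of 5 is near the background. The difference was 0.68 for LHCB4.1, 0.70 for LHCB4.2, whose call was lost in 14 of 26 settings, and 0.51 for LHCB4.3, which was not called. The differences from Col-0 of the 5 photosystem genes were all called and positive, with medians of 2.03 in gun1-9 and 2.09 in gun5. Of all probe sets 8.07% and 8.73% were called higher in these comparisons. Whether the CP29 genes differ from them in this respect was not tested.

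Genes for the synthesis of chlorophyll and carotenoids, the pigments that CP29 binds, were measured in part. Of 24 tetrapyrrole genes listed 8 were measured, and 7 fell in Col-0 (median -1.73), 6 fell and 1 rose in gun1-9 (median -0.54), and 4 fell and 1 rose in gun5 (median -0.29). Of all probe sets 15.1%, 15.7% and 13.2% were called lower in Col-0, gun1-9 and gun5, with medians of 0.03, 0.02 and 0.04. The riser was HEMA2, a glutamyl-tRNA reductase gene, with a log2 change of 0.66 in gun1-9 and 1.11 in gun5. PORB, a protochlorophyllide oxidoreductase gene, fell with log2 changes of -4.76, -3.29 and -3.85 in Col-0, gun1-9 and gun5. LYC, lycopene cyclase, was measured of 10 xanthophyll and photoprotection genes, and fell in Col-0 (-1.14), while gun1-9 (0.06) and gun5 (-0.13) gave no call. None of 9 genes for import, insertion and phosphorylation of antenna proteins had a probe set of its own. Of 10 regulators of antenna genes HYH, a bZIP factor of light signalling, was measured and rose in all 3 genotypes, by 0.58, 0.73 and 0.70 for Col-0, gun1-9 and gun5, where 24.2%, 20.5% and 15.7% of all probe sets were called higher.

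Genes with profiles most like those of the CP29 genes were sought among 13512 probe sets annotated to 1 gene each. By Pearson's r over the 18 arrays, a description that rests largely on the group means, LHCB4.2 was the nearest to LHCB4.1 (r = 0.988). It was followed by AT2G35260 (0.985), PSAE-1 (0.983), GSTU18, a tau-class glutathione transferase gene (0.978), and AT4G28080 (0.978). Nearest to LHCB4.2 were PSAE-1 (0.992), AT1G62250 (0.990), GSTU18 (0.990) and PSAN (0.989), with LHCB4.1 at the fifth place. LHCB4.3 had r = 0.877 with LHCB4.1 and 0.909 with LHCB4.2, at ranks 250 and 225.

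A measure that keeps the size of the changes gave other neighbours. By the root mean square difference of group means centred over the 6 groups, in log2 units, the nearest to LHCB4.1 were AT1G31920 (0.11), AT1G74730 (0.14), HEME1, a uroporphyrinogen decarboxylase gene (0.14), AT5G08050 (0.14) and AT1G53560 (0.17). The nearest to LHCB4.2 were AT1G72030 (0.20), AT2G42220 (0.20), AT1G62250 (0.25), AT4G25780 (0.26) and AT3G10060 (0.27). LHCB4.1 and LHCB4.2 differed from each other by 0.66 on this measure, which placed LHCB4.2 at rank 731 for LHCB4.1 and LHCB4.1 at rank 88 for LHCB4.2. LHCB4.3 was no farther from either gene, at 0.65 from LHCB4.1 (rank 687) and 0.60 from LHCB4.2 (rank 61). The profiles of LHCB4.1 and LHCB4.2 were thus highly correlated and unequal in size. In gun1-9 the log2 change was -0.16 for LHCB4.1, without a call, and -0.83 for LHCB4.2.

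**Figure D5:**
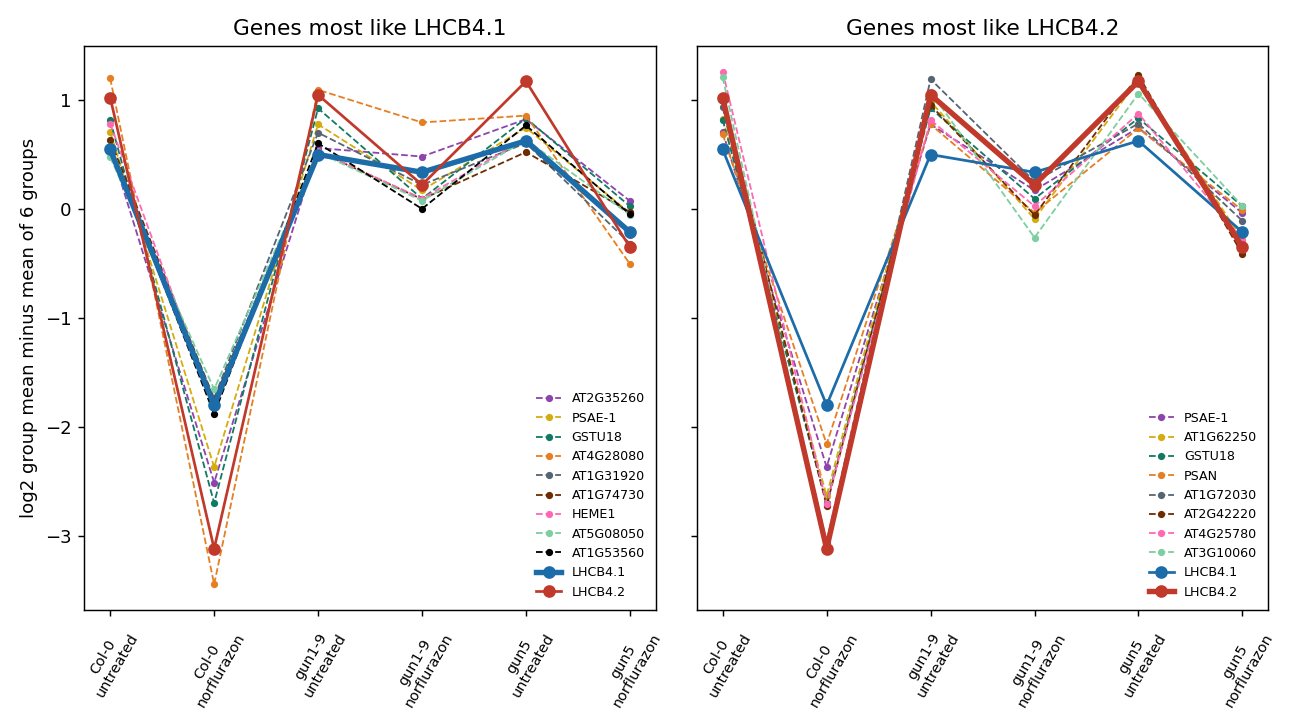
Log2 group means, each centred on its mean over the 6 groups, for LHCB4.1 (left) and LHCB4.2 (right) in bold with the genes most like each by either measure (dashed). All profiles have their minimum in treated Col-0, and the minimum of LHCB4.2 is deeper than that of LHCB4.1.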

How the data were processed

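The authors deposited 1 table of linear probe-set intensity values, already normalized between arrays as the values show. The submitters' processing notes name the tools GCRMA and MAS5 and give no role or version. GCRMA models background from probe sequence, and scaling of arrays to each other can remove part of a shift shared by many genes. The 64 control probe sets among its 22810 rows were not tested. A single gene is annotated to 13513 probe sets, several to 503 and none to 8730, and 13436 of the 13513 matched a RefSeq gene table (TAIR10.1). No build is named for the values, so no coordinates are given, and no sequences were used.

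On log2(intensity + 1), a 6-group model over all 18 arrays was fitted by limma 3.58.1 (R 4.3.3), using lmFit and eBayes with 4.48 prior degrees of freedom. Tests were 2-sided with Benjamini-Hochberg adjustment over every probe set of a contrast, and a call is an adjusted p under 0.05. This scale slightly understates changes of dim probe sets. The 2 genes were compared by exact permutation of the within-array log2 difference. The limma fit and the permutation test over the 3 genotypes were checked on simulated data, and the test within a genotype on a made example. The permutation tests between genotypes and the exact test used with the replicate block were not checked in this way. Members, gene lists and tests were chosen with earlier results of these data known. Named genes are the CP29 genes, measured members of the lists (for several probe sets, the brightest), and the 5 nearest genes of each member by each of 2 measures. Alternatives tried were quantile normalization, median centring of each array, log2(intensity + 16), log2 with nothing added, leaving out dim probe sets, fitting the compared groups alone, a robust eBayes with a trend, a replicate block, and leaving out each array in turn. Same-numbered treated and untreated arrays had correlations of deviations from -0.08 to 0.11, and the main fit and tests did not pair them. These low values do not show that the numbers carry nothing shared. Replicate 1 was the highest array of each of the 6 groups for the 25S ribosomal RNA control and for HYH. With the replicate block, the SE of the norflurazon response went from 0.137 to 0.112 for LHCB4.2 and from 0.106 to 0.104 for LHCB4.1. What same-numbered arrays share was not tested. Figures were drawn with matplotlib 3.10.9.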

Additional observations from a re-analysis of the deposited data

Results flagged for a closer look

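The norflurazon response differed between genotypes by a test of the difference itself in 8 cases among the CP29 genes. Against Col-0, the log2 response in gun1-9 was higher by 2.18 for LHCB4.1, 3.32 for LHCB4.2 and 1.68 for LHCB4.3. In gun5 it was higher than in Col-0 by 1.51, 2.62 and 1.17 in the same order. Between gun1-9 and gun5 it differed by 0.68 for LHCB4.1 and by 0.70 for LHCB4.2, the latter near the threshold. The remaining case, LHCB4.3 between the mutants, was not called (0.51, limma adjusted p = 0.192). Over all probe sets 8.07% in gun1-9 and 8.73% in gun5 were called higher against Col-0. Between the mutants 5.46% were called in either direction. Single outlying arrays were not tested within the groups of 3.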

How the results depend on the processing

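For LHCB4.1 and LHCB4.2, 646 values were recomputed under up to 26 settings each, and 632 kept their side of the threshold, with no called value changing direction. The exact tests within genotypes, which cannot give p below 0.1, and those between genotypes, none of which passed, are not counted here. The other 14 all concern the difference of response of LHCB4.2 between gun1-9 and gun5, which lost its call when each array was centred on its median (0.65, adjusted p = 0.0589) and with nothing added before the log (0.70, adjusted p = 0.0533). It also lost it in 12 of 18 fits with 1 array left out. Values ranged from 0.61 to 0.75 in those 12 and from 0.61 to 0.83 over all 18. The cause was not tested. With the median centring the count of antenna genes called higher in that comparison went from 2 to 1. With the replicate block LHCB4.1 had a log2 change of -0.16 in gun1-9, and the block changed no call of either gene. The LHCB4.2 difference between the mutants then had limma adjusted p = 0.0162. For the gap between the genes, the block gave 1.05 over the 3 genotypes. Its exact test, which flips the signs of same-numbered treated minus untreated differences, gave p = 0.0039, the smallest it allows. Counts of probe sets called between untreated groups were between 1 and 141 for gun1-9 against Col-0 (90 in the fit used), 123 and 474 for gun5 against Col-0 (380), and 11 and 93 between the mutants (37). With 3 arrays per group, differences between untreated groups below the bounds of their intervals could not be resolved.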
